A study of Mus musculus with 8 samples.

Results

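Local handling of thyroid hormone in the mouse inner ear was described through 8 genes that act before the hormone reaches its receptor. They were taken by symbol from the 8 count files and are Dio2 and Dio3 (deiodinases), Slc16a10, Slco1c1, Slco1a4, Slc7a5 and Slc7a8 (membrane transporters) and Crym (cytosolic binding). All 8 symbols were found among the 47517 in the files, and all had counts. Whole inner ear RNA came from mice at postnatal day 14, in 4 libraries of mutant mice and 4 of wild-type littermates without treatment. The mutant mice were heterozygous for a frameshift in Thra that alters thyroid hormone receptor α1 (TRα1), so every mutant library still contained a wild-type allele. Strain and sex are not stated in the labels, and the series title names the cochlea where the labels name the inner ear.

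Thyroxine (T4) is carried into cells by transporters of the SLC16, SLCO and SLC7 families. Inside the cell the type 2 deiodinase, the product of Dio2, removes an outer-ring iodine and makes the active hormone T3, whereas the type 3 deiodinase, the product of Dio3, removes an inner-ring iodine and inactivates both forms. In the rodent cochlea Dio2 is known from the connective tissue around the sensory epithelium, and its loss in mice impairs hearing. The crystallin encoded by Crym binds T3 in the cytosol with the help of NADPH, and variants of the human gene have been linked to deafness.

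Both deiodinases are selenoproteins, in which a TGA codon inside the reading frame is read as selenocysteine at the catalytic site. The sequence around an annotated selenocysteine codon is shown for each of the 2 members. The codon is in capitals with 15 bases of GENCODE transcript sequence (release M21, GRCm38) on each side. It lies at chr12:90729424-90729426 (minus strand) in Dio2 and at chr12:110279739-110279741 (plus strand) in Dio3. In the Dio2 window an in-frame stop codon, TAG, follows shortly after. The Dio2 codon shown is therefore near the end of the reading frame and is not the catalytic one. The 2 windows are not equivalent sites.
Dio2: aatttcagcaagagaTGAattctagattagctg
Dio3: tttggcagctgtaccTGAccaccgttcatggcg

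The libraries held between 18930841 and 23064578 counts, and 3 counts, used as a floor, corresponded to 0.132 to 0.159 CPM (counts scaled to a common normalized library size), for counting error only. No 2 libraries agreed within sampling noise, with chi-square per degree of freedom at 17.3 or more for every pair. Whether each library came from separate animals is not in the labels, and the p-values therefore cover spread among libraries that may be partly technical. Replicates 1 and 4 of both genotypes carry 1 number in their title, while replicates 2 and 3 carry 2, and the labels do not explain these numbers. Thra, the mutated gene, had 137, 113, 126 and 132 CPM in mutant replicates 1 to 4, against 114, 114, 102 and 98.4 CPM in wild-type replicates 1 to 4. Counts per gene cannot show a frameshift, so Thra does not check the genotype labels. The hair cell markers, which include Myo7a, an unconventional myosin of the hair bundle, were detected in every library, with summed levels of 131 to 182 CPM in mutant and 137 to 183 CPM in wild-type libraries.

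Levels of different genes were compared as CPM per kilobase of annotated exon. Slco1c1 had the highest mean over the 8 libraries, at 20.97 ± 4.84 CPM per kilobase (SD, n = 8). It was followed by Dio2 at 16.5 ± 12.5, Slc7a5 at 15.7 ± 3.47, Slco1a4 at 12.2 ± 3.02 and Slc7a8 at 12.1 ± 1.37 CPM per kilobase. Slc16a10 at 3.01 ± 1.07, Crym at 1.32 ± 0.441 and Dio3 at 0.134 ± 0.0772 CPM per kilobase stood lower. The last 3 steps, from Slc7a8 to Slc16a10, to Crym and to Dio3, held in 8 of 8 libraries. Among the upper 5 genes the neighbours were not separated: Slco1c1 exceeded Dio2 in 6 of 8 libraries, Dio2 exceeded Slc7a5 in 3, Slc7a5 exceeded Slco1a4 in 7 and Slco1a4 exceeded Slc7a8 in 4. Per kilobase of the longest transcript in place of all exons, Slco1a4 at 20.5 and Slc7a5 at 16.6 CPM stood above Dio2 at 16.5 CPM. RNA of the activating deiodinase exceeded that of the inactivating one in every library.

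**Figure D1:**
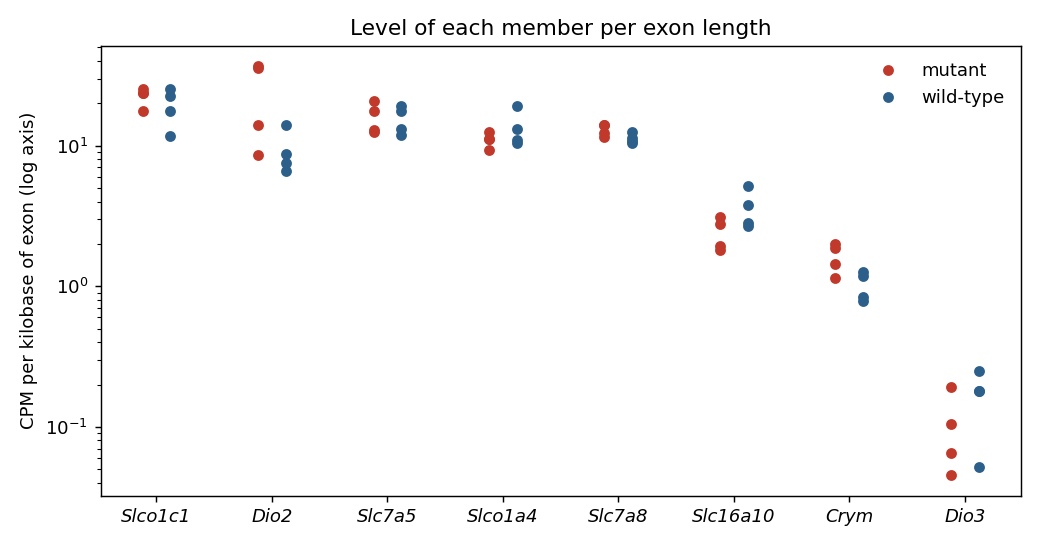
CPM per kilobase of exon (log axis) of each of the 8 genes, with 1 point per library, mutant left of wild-type. Slco1c1 has the highest mean at 20.97 and Dio3 the lowest at 0.134 CPM per kilobase; the 5 highest genes overlap.

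The genotypes were compared with edgeR's quasi-likelihood test over 21392 genes that passed the low-count filter, 7 members among them. At a Benjamini-Hochberg adjusted p under 0.05, 0 of the 7 were called, and the same rule called 9 genes in all, or 0.0421% of those tested. DESeq2 and limma-voom also called 0 of the 7. At an unadjusted p under 0.05 there were 3 members, Dio2 and Crym on the higher side and Slc16a10 on the lower, where 5.3% of all tested genes passed. The genotypes overlapped in each of the 8 members, and did not in 2.69% of all tested genes. Of the 7 fold changes 5 were positive, with a median log2 fold change of 0.21, beside a median of -0.0061 over all tested genes. In bulk tissue fewer cells of a type and less RNA per cell cannot be told apart.

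**Figure D2:**
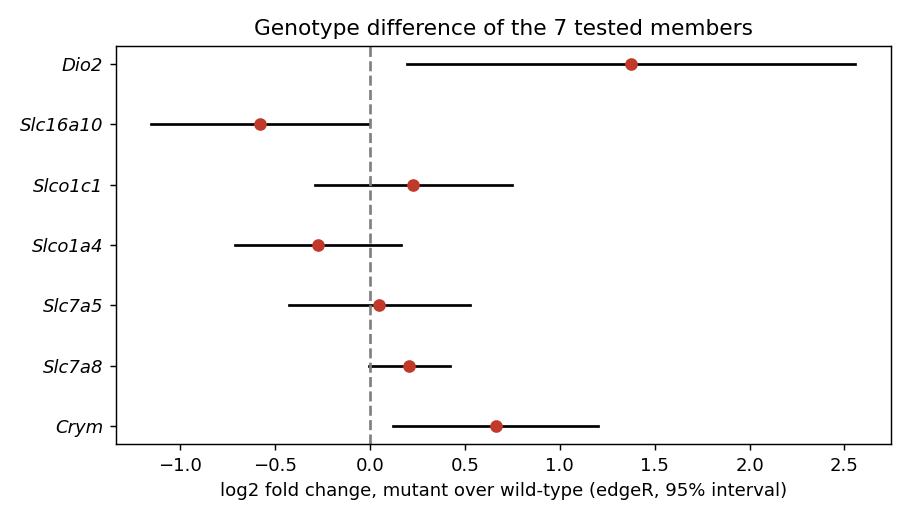
Log2 fold change of mutant over wild-type for the 7 tested members (points) with 95% intervals (lines) from edgeR, n = 4 per genotype. The Dio2 interval is the widest, from 0.19 to 2.56, and the Slc7a8 interval the narrowest, from -0.0035 to 0.42.

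Dio2 (ENSMUSG00000007682.6, chr12:90724552-90738438, minus strand, GRCm38) had 213, 50.3, 209 and 81.4 CPM in mutant replicates 1 to 4, against 50.4, 43.8, 81.0 and 38.1 CPM in wild-type replicates 1 to 4. Mutant replicates 1 and 3 stood far above the other 6 libraries, while mutant replicate 2 lay within the wild-type range and mutant replicate 4 just above it. The means were 138 ± 84.8 CPM in mutant and 53.4 ± 19.1 CPM in wild-type libraries (SD, n = 4 each). The log2 fold change of 1.38 (SE 0.51), a 2.60-fold higher fitted level with a 95% interval from 1.14-fold to 5.88-fold, was not called (edgeR adjusted p = 0.924). Dio2 was the most variable member within genotypes, with a log2 SD of 0.80 that exceeded that of 92.0% of tested genes. Where titles held 1 number the log2 fold change was 1.73 (SE 0.84), and where they held 2 numbers it was 1.05 (SE 0.83, n = 2 per genotype in each). The difference between the title forms was called for 0 of the 7 members (edgeR interaction, adjusted p = 0.999995 for each), where 0.0795% of tested genes were called.

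Dio2 shares 100 exonic bases with an exon of Gm26512, a long non-coding RNA on the opposite strand. Whether counting used strand is not stated, so it is not known how reads there were assigned or whether they were counted. Gm26512 had 20.4, 9.47, 31.5 and 11.4 CPM in mutant replicates 1 to 4, against 8.13, 8.98, 13.1 and 6.62 CPM in wild-type replicates 1 to 4. It was also highest in mutant replicates 1 and 3, with a log2 fold change of 0.98 (SE 0.39, edgeR adjusted p = 0.924). The ratio of Dio2 to Gm26512, each over the whole gene, ranged from 4.88 to 10.5, so Gm26512 was the lower in each library. The shared bases were not counted apart.

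The promoter of Dio2 is shown because Dio2 had the widest range of any member past the filter and because control of its transcription by cyclic AMP, through a response element known from the human and rodent genes, is well established. The 250 bases before the RefSeq start (chr12:90739039-90739288, minus strand, GRCm38.p6) are given 5′ to 3′, with capitals for the palindromic cyclic AMP response element TGACGTCA and the TATA box TATAAA. The RefSeq start lies upstream of the GENCODE start given above.
Dio2 promoter: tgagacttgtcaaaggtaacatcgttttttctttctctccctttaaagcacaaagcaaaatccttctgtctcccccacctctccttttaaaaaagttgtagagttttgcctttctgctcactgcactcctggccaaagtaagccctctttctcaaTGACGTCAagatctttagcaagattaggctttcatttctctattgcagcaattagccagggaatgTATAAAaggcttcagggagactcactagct

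The response element began at base -95 and the TATA box at base -30, counted from the start. Both strands were searched. TGACGTCA was found in 1.55% and TATAAA in 12.4% of the 32851 RefSeq mouse promoter windows of the same length. Of the 8 members 6 had a window in that set, 1 of them (Dio2) held TGACGTCA and 2 (Dio2 and Dio3) held TATAAA. The receptor half-site AGGTCA was found in 0 of the 6 and in 14.0% of all windows. These matches describe the letters only, and binding was not measured.

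Dio3 (chr12:110279068-110281097, plus strand) was close to the limit of detection, with 45 counts over all libraries. It had 3, 2, 8 and 4 counts in mutant replicates 1 to 4, against 11, 2, 7 and 8 counts in wild-type replicates 1 to 4. Mutant replicates 1 and 2 and wild-type replicate 2 were at or below the floor of 3 counts, and the genotypes overlapped. It did not pass the filter on low counts. Fitted without a filter its log2 fold change was -0.70 with a 95% interval from -2.29 to 0.89 (edgeR adjusted p = 0.885), so a difference was not detectable at this depth.

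Crym (ENSMUSG00000030905.5, chr7:120186380-120202111, minus strand) had 6.76, 3.86, 6.40 and 4.87 CPM in mutant replicates 1 to 4, against 3.99, 2.84, 4.32 and 2.67 CPM in wild-type replicates 1 to 4. Mutant replicates 1, 3 and 4 lay above the highest wild-type library, and mutant replicate 2 lay within the wild-type range. The means were 5.47 ± 1.35 CPM in mutant and 3.45 ± 0.824 CPM in wild-type libraries (SD, n = 4 each). On the log2 scale the fold change was 0.66 (SE 0.24), with a 95% interval from 1.09-fold to 2.30-fold, and it was not called (edgeR adjusted p = 0.922). Title forms gave 0.80 (SE 0.37) for 1 number and 0.52 (SE 0.37) for 2 numbers. Crym rested on 743 counts over all libraries, the fewest of the 7 tested members.

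**Figure D3:**
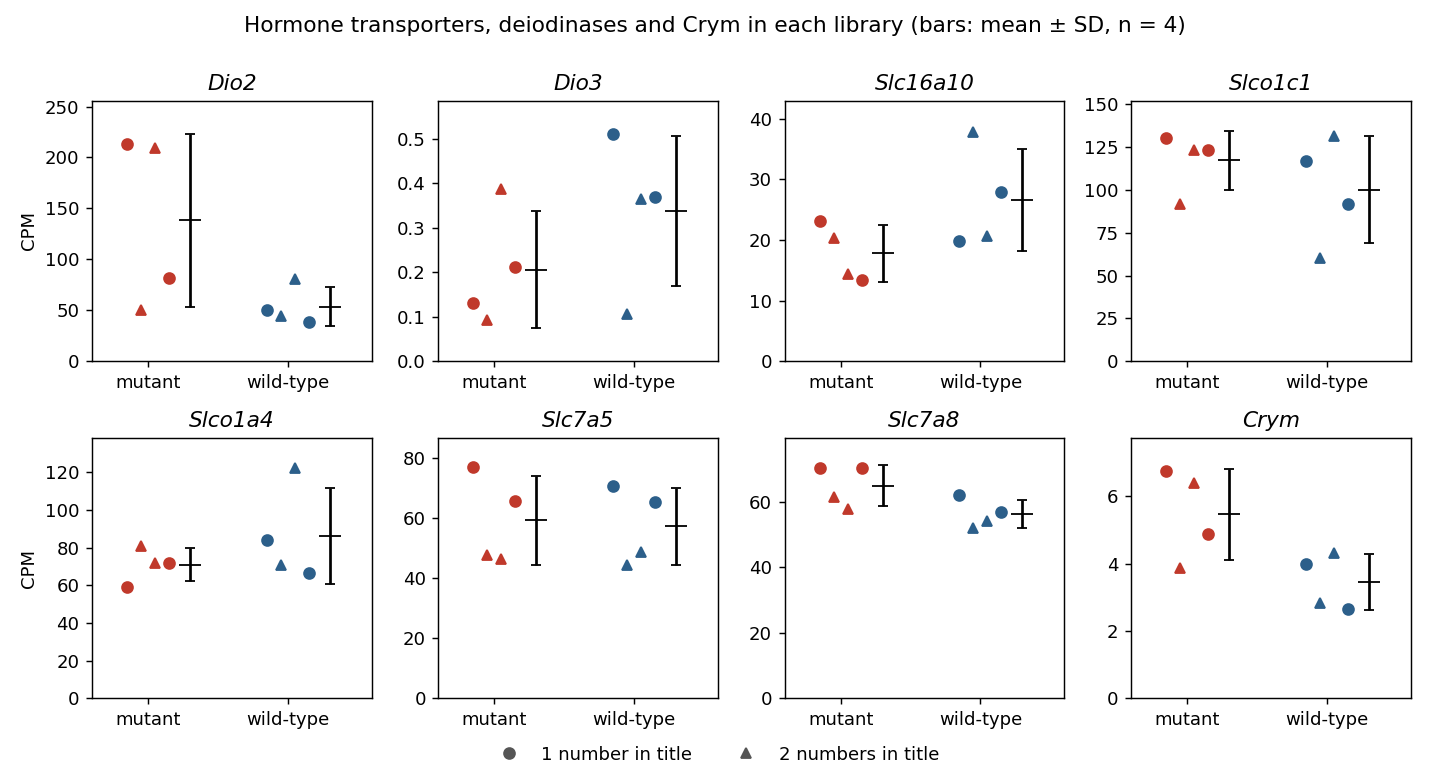
CPM of each of the 8 genes in every library, mutant left of wild-type, with circles for 1 number and triangles for 2 numbers in the title and bars for the mean ± SD (n = 4). Dio2 and Crym are highest in the same 2 mutant libraries, and Slc7a5 is separated by title form in both genotypes.

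The libraries stood in the same order for Dio2 and for Crym, from wild-type replicate 4 at the low end to mutant replicate 1 at the high end. Over the 8 libraries Spearman's rho was 1, and Pearson's r of the log2 levels was 0.95. With each genotype's mean subtracted r was 0.91. The points share library, depth and, before centring, the genotype difference, and 2 steps of the order rest on Dio2 differences of less than 1 CPM. These are mutant replicate 2 beside wild-type replicate 1, at 50.3 and 50.4 CPM, and mutant replicate 4 beside wild-type replicate 3, at 81.4 and 81.0 CPM. For Crym, neighbours in the order differ by few counts. Wild-type replicates 4 and 2 held 58 and 54 counts, and mutant replicate 2 and wild-type replicate 1 held 84 and 86. Of 19382 other genes with a mean of at least 1 CPM, 1 gene (Crym) had the library order of Dio2, and 344 genes (1.77%) had a rho of at least 0.9. This count was made after the match of the members had been seen. Of the 21 pairs of members only 1 other pair, Slc7a5 with Slc7a8, had a centred r above 0.9, at 0.94. Title form was not subtracted, and both of these genes were lower with 2 numbers in the title (log2 fold changes -0.58 and -0.20, described below).

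**Figure D4:**
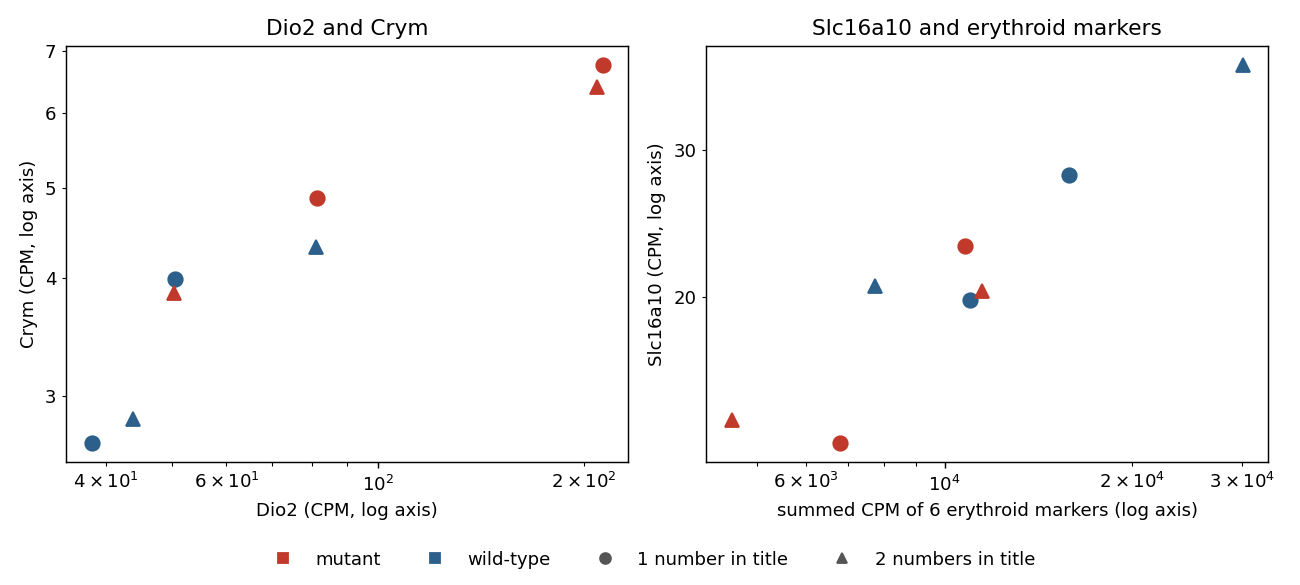
Left, Crym against Dio2, and right, Slc16a10 against the summed CPM of 6 erythroid markers, on log axes with 1 point per library, coloured by genotype and shaped by title form. Dio2 and Crym put the 8 libraries in the same order, and wild-type replicate 2, at 30029 CPM of erythroid markers, is the highest for Slc16a10.

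Slc16a10 (ENSMUSG00000019838.11, chr10:40033532-40142258, minus strand) encodes MCT10, which carries aromatic amino acids and thyroid hormone. It had 23.0, 20.3, 14.3 and 13.4 CPM in mutant replicates 1 to 4, against 19.8, 37.9, 20.7 and 27.97 CPM in wild-type replicates 1 to 4. Mutant replicates 3 and 4 lay below every wild-type library, and wild-type replicate 2 lay above all others. The means were 17.8 ± 4.68 CPM in mutant and 26.6 ± 8.36 CPM in wild-type libraries (SD, n = 4 each). The fold change on the log2 scale, -0.58 (SE 0.25), with a 95% interval from -1.15 to -0.0055, was not called (edgeR adjusted p = 0.924). Without wild-type replicate 2 it was -0.36.

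Erythroid marker RNA moved with Slc16a10. The 6 markers (among them the globin genes Hba-a1 and Hbb-bs and the anion exchanger gene Slc4a1) were all detected, at summed levels of 10775, 11488, 4558 and 6795 CPM in mutant replicates 1 to 4, against 10998, 30029, 7728 and 15813 CPM in wild-type replicates 1 to 4. Wild-type replicates 2 and 4 were highest and mutant replicates 3 and 4 lowest for both. With genotype means subtracted, r of the log2 levels was 0.91 over the 8 libraries. Other marker sums also moved with Slc16a10 or against it. The centred r was 0.76 for the adipocyte sum, -0.71 for the osteoblast and osteocyte sum and -0.67 for the general endothelial sum. All 6 erythroid markers had negative fold changes, with 0 called. The part of erythroid cells in the Slc16a10 values was not tested.

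The organic anion transporters Slco1c1 and Slco1a4 lie close together on chromosome 6. Slco1c1 encodes a transporter with high affinity for T4 (ENSMUSG00000030235.17, chr6:141524368-141570177, plus strand), known from brain capillaries. It had 130, 91.7, 124 and 124 CPM in mutant replicates 1 to 4, against 117, 60.4, 131 and 91.8 CPM in wild-type replicates 1 to 4. Wild-type replicate 2 stood lowest, and all mutant libraries lay within the wild-type range. Its log2 fold change was 0.23 (SE 0.23), with a 95% interval from 0.817-fold to 1.68-fold (edgeR adjusted p = 0.99999). Without wild-type replicate 2 it was 0.048.

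General endothelial marker RNA moved with Slco1c1. The 6 general endothelial markers, led by Cdh5, Pecam1 and Emcn, were all detected and summed to 309, 208, 295 and 329 CPM in mutant replicates 1 to 4, against 265, 177, 241 and 234 CPM in wild-type replicates 1 to 4. Wild-type replicate 2 was lowest for both, and mutant replicate 2 was the lowest mutant library for both. With genotype means subtracted r of the log2 levels was 0.84, and with the erythroid sum it was -0.84 (n = 8 libraries). For the osteoblast and osteocyte sum it was 0.75 and for the mucosal epithelium sum -0.83. The 6 markers chosen for brain endothelium, led by Spock2 and Abcb1a, summed to 259 to 453 CPM in mutant and 285 to 416 CPM in wild-type libraries, with a centred r of -0.13 with Slco1c1. Spock2 made up most of that sum, at 190 to 371 CPM in mutant and 208 to 331 CPM in wild-type libraries. The list was split: Mfsd2a, Foxq1 and Lef1 were lowest in wild-type replicate 2, as Slco1c1 was. Spock2, Abcb1a and Slc38a5 were lowest in mutant replicate 3. The part of endothelial content in the Slco1c1 values was not tested.

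Slco1a4 encodes a transporter of many organic anions, thyroid hormone among them (ENSMUSG00000030237.14, chr6:141805440-141856199, minus strand). It had 59.3, 80.7, 72.0 and 72.0 CPM in mutant replicates 1 to 4, against 83.8, 70.8, 122 and 66.5 CPM in wild-type replicates 1 to 4. Wild-type replicate 3 stood above the other 7 libraries, and mutant replicate 1 was the lowest. The log2 fold change was -0.27 (SE 0.19), with a 95% interval from 0.610-fold to 1.121-fold (edgeR adjusted p = 0.978). Without wild-type replicate 3 it was -0.054. Slco1c1 and Slco1a4 had a centred r of 0.46 over the 8 libraries.

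Slc7a5 and Slc7a8 encode the light chains LAT1 and LAT2 of System L, exchangers of large neutral amino acids that also carry thyroid hormone, and both need the heavy chain encoded by Slc3a2 to reach the membrane. Slc7a5 (ENSMUSG00000040010.10, chr8:121881150-121907694, minus strand) had 77.2, 47.6, 46.4 and 65.7 CPM in mutant replicates 1 to 4, against 70.6, 44.4, 48.6 and 65.5 CPM in wild-type replicates 1 to 4. The genotypes had the same pattern, with replicates 1 and 4 high and replicates 2 and 3 low in both. The log2 fold change between genotypes was 0.048 (SE 0.21), with a 95% interval from 0.743-fold to 1.44-fold (edgeR adjusted p = 0.99999), and its sign turned when single libraries were left out, from -0.11 without mutant replicate 1 to 0.18 without wild-type replicate 1. Its locus lies within the span of Gm20388, a long annotated gene of the opposite strand, with which it shares 0 exonic bases.

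Slc7a8 (ENSMUSG00000022180.7, chr14:54722209-54781946, minus strand) was the most even member, with a log2 SD within genotypes of 0.13, against a median of 0.23 over all tested genes. It had 70.3, 61.4, 57.9 and 70.5 CPM in mutant replicates 1 to 4, against 62.1, 51.9, 54.3 and 56.9 CPM in wild-type replicates 1 to 4. Mutant replicates 1 and 4 lay above every wild-type library, and the other mutant libraries overlapped with them. Slc7a8 thus had the narrowest estimate, a log2 fold change of 0.21 (SE 0.093) with a 95% interval from 0.998-fold to 1.34-fold (edgeR adjusted p = 0.924).

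The split of the System L genes by title form was tested after it had been seen, in an edgeR fit with genotype and title form as terms. Slc7a5 averaged 46.8 ± 1.84 CPM in the 4 libraries with 2 numbers in the title and 69.8 ± 5.49 CPM in the 4 with 1 number (SD, n = 4 each). The ranges, 44.4 to 48.6 CPM with 2 numbers and 65.5 to 77.2 CPM with 1 number, did not overlap. The log2 fold change of 2 numbers over 1 number was -0.58 (SE 0.070), a 0.670-fold level (edgeR adjusted p = 0.00782). In this fit 2008 genes, or 9.39% of those tested, were called, so a call by title form was common. Slc7a5 was 1 of 7 tested members called.

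Slc3a2, the heavy chain partner, was also lower in libraries with 2 numbers, at 95.2 ± 7.77 CPM with 2 numbers and 117 ± 3.68 CPM with 1 number (SD, n = 4 each). Its change on the log2 scale was -0.29 (SE 0.071, edgeR adjusted p = 0.0440). Slc7a8 averaged 56.4 ± 4.16 CPM with 2 numbers and 64.9 ± 6.65 CPM with 1 number, a log2 fold change of -0.20 (SE 0.056) that was not called by edgeR (adjusted p = 0.0647) but was by DESeq2 (-0.20, adjusted p = 0.0243). The other 5 members had adjusted p-values of 0.344 to 0.930, with Slco1a4 (log2 fold change 0.29, SE 0.18) the furthest from 0 among them. Between genotypes Slc3a2 had 117, 100.1, 83.6 and 119 CPM in mutant replicates 1 to 4, against 119, 98.1, 99.1 and 112 CPM in wild-type replicates 1 to 4, with a log2 fold change of -0.030 (SE 0.13). Whether title form marks pooling, litters or another handling step is not stated, and the cause of the split was not tested.

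**Figure D5:**
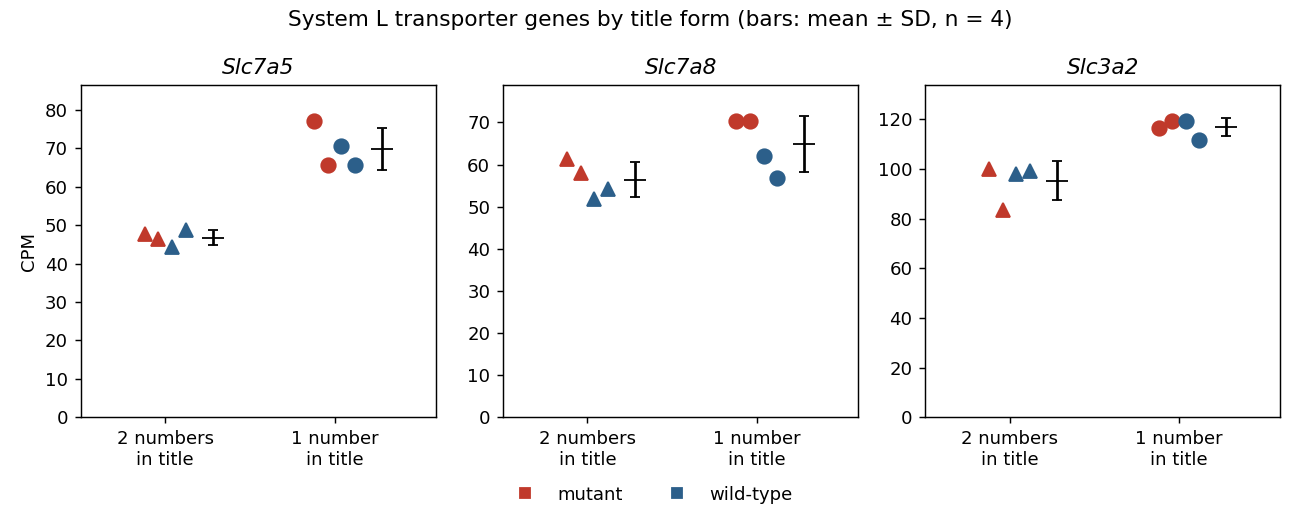
CPM of Slc7a5, Slc7a8 and Slc3a2 in libraries with 2 numbers (left) and 1 number (right) in the title, coloured by genotype, with bars for the mean ± SD (n = 4). Slc7a5 lies between 44.4 and 48.6 CPM with 2 numbers and between 65.5 and 77.2 CPM with 1 number, in both genotypes.

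For each tested member the genes of most similar pattern were taken among 15183 genes with a mean of at least 1 CPM and an established symbol, by Pearson's r of log2 CPM over the 8 libraries with genotype means subtracted. With 8 libraries high values are common, and between 89 and 476 genes reached an r of 0.9 for each member. Closest to Dio2 were Ntn4 (r = 0.98), a netrin of basement membranes, Pvrl2 (0.98), a cell adhesion protein, and Mmp11 (0.98), a secreted metalloproteinase of stromal cells. Closest to Crym were Kdm4b (0.98), Ankrd13b (0.98) and Nynrin (0.98). Slc16a10 was followed most closely by Vrk1 (0.99), Slc25a37 (0.98), the mitochondrial iron importer of erythroid cells, and Ago2 (0.98). For Slco1c1 the closest were Bhlhe22 (0.99), Arcn1 (0.99) and Yap1 (0.99), and for Slco1a4 Nebl (0.99), Zmym4 (0.99) and Cdk14 (0.98). Slc7a5 was matched by Fam168b (0.99), Got2-ps1 (0.99) and Atp5a1 (0.99), a subunit of the mitochondrial ATP synthase, and Slc7a8 by Ube2l3 (0.998), Ydjc (0.995) and Nacc2 (0.99). Title form was not subtracted. In both genotypes Atp5a1 had the same split by title form as Slc7a5. The same held for every other gene named here for Slc7a5 or Slc7a8, each lower in the libraries with 2 numbers in the title.

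The other genes of hormone handling were taken from a list of 37, covering more transporters, selenoprotein synthesis, turnover of the type 2 deiodinase, carriers, conjugation and receptors. Of these 28 were tested, 15 with positive and 13 with negative fold changes (median log2 fold change 0.034), and 0 were called. At an unadjusted p under 0.05 there were 3 on the higher and 2 on the lower side, 5 of 28, where 5.3% of all tested genes passed. Among the higher were Thra (log2 fold change 0.24, SE 0.089) and Ttr. Lower were Slc43a2, another System L transporter (34.4 ± 2.30 CPM in mutant and 41.2 ± 5.40 CPM in wild-type libraries, without overlap, -0.26, SE 0.10), and Lrp2, an endocytic receptor (143 ± 26.2 CPM in mutant and 197 ± 51.6 CPM in wild-type libraries, -0.46, SE 0.20; SD, n = 4 each). The edgeR adjusted p was 0.924 for each of these 4 genes.

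The genes for making and removing the type 2 deiodinase had small fitted fold changes at the RNA level. The 6 selenoprotein synthesis genes had log2 fold changes between -0.15 and 0.085. The 4 genes for ubiquitination and deubiquitination of the enzyme (Wsb1, March6, Usp33 and Usp20) had values between -0.063 and 0.063. In either group 0 genes had an unadjusted edgeR p under 0.05. Larger differences are not excluded: the 95% interval of Wsb1, the widest among them, ran from 0.721-fold to 1.46-fold. The type 1 deiodinase gene Dio1 summed to 39 counts and was too low to test. Ttr, the T4 carrier made by the choroid plexus, stood at 9.97, 32.5, 5.96 and 2021 CPM in mutant replicates 1 to 4, against 5.76, 12.3, 7.85 and 16.2 CPM in wild-type replicates 1 to 4. That single library was not the highest for any member with the exception of Slc7a8.

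Markers of tissues that border the inner ear were present in all libraries. Choroid plexus markers summed to 37.1 to 2108 CPM in mutant and 41.0 to 59.1 CPM in wild-type libraries, with mutant replicate 4 at 2108 CPM and the other mutant libraries at 45.7, 70.3 and 37.1 CPM. Astrocyte markers, led by Gfap, summed to 487 to 715 CPM in mutant and 374 to 579 CPM in wild-type libraries. Oligodendrocyte markers, led by Mobp, summed to 358 to 612 CPM in mutant and 235 to 747 CPM in wild-type libraries. In mutant replicates 1 and 3, where Dio2 and Crym were highest, astrocyte markers stood at 487 and 550 CPM, within the wild-type range. Spiral ligament fibrocyte markers, led by Coch, stood there at 5044 and 4623 CPM, within the wild-type range of 3775 to 5640 CPM, but Coch, which makes up much of that sum, did not move with the rest of the list. Coch had 1856 and 1393 CPM in mutant replicates 1 and 3, the 2 lowest of the 8 libraries. Of the 6 fibrocyte markers 4 had their 2 highest levels of all libraries there. Car3 stood at 1603 and 1753 CPM in mutant replicates 1 and 3 and at most 1488 CPM elsewhere, and the transcription factor gene Pou3f4 at 86.4 and 82.8 CPM there and at most 59.9 CPM elsewhere. Tbx18 and Tbx15 were the other two. Hair cell markers summed to 136 and 131 CPM in mutant replicates 1 and 3, the 2 lowest of the 8 libraries and below the wild-type range of 137 to 183 CPM. Mutant replicate 1, at 135.8 CPM, was close to wild-type replicate 1, at 136.7 CPM. Myo7a and Otof made up most of the sum, and the list was split. Myo7a had its 2 lowest levels there, at 81.7 and 82.8 CPM. Slc26a5 stood there at 4.52 and 4.12 CPM, above the wild-type maximum of 3.75 CPM. Pou4f3 in mutant replicate 1 lay within the wild-type range. With genotype means subtracted, r with the hair cell sum was -0.68 for Dio2 and -0.79 for Crym, and with the general endothelial sum it was 0.53 for Dio2 and 0.67 for Crym (n = 8 libraries). Dio2 also had an r of 0.56 with the meningeal sum, -0.58 with the central neuron sum and -0.35 with the fibrocyte sum. Crym had -0.63 with the erythroid sum. Osteoblast and osteocyte markers, led by Bglap, stood at 3816 and 4919 CPM there, against 2495 to 4425 CPM in wild-type libraries. Central neuron markers, led by Cbln1, summed to 8.56 to 14.7 CPM in mutant and 10.8 to 15.4 CPM in wild-type libraries. Adipocyte markers summed to at most 11.7 CPM in mutant and 11.8 CPM in wild-type libraries. Among them Ucp1, the uncoupling protein gene of brown fat, stood at 5.58 CPM in mutant replicate 1, where Dio2 was highest, and at most 0.184 CPM in the other 7 libraries. The adiponectin gene Adipoq was at 2.06 CPM in that library, within the range of the others. Summed skeletal muscle markers reached at most 11.05 CPM in mutant and 15.5 CPM in wild-type libraries. Of the 15 summed lists, the meningeal (led by Aldh1a2), skeletal muscle and macrophage markers were higher in mutant replicates 1 and 3 than in the other mutant libraries. Meningeal markers stood at 179 and 158 CPM in mutant replicates 1 and 3, against 132 and 142 CPM in mutant replicates 2 and 4 and 113 to 202 CPM in wild-type libraries. Macrophage markers, led by Csf1r, stood at 194 and 191 CPM in mutant replicates 1 and 3, against 183 and 189 CPM in mutant replicates 2 and 4 and 172 to 217 CPM in wild-type libraries. Mucosal epithelium markers, led by Bpifa1, summed to 1.16 to 2.42 CPM in mutant and 168 to 537 CPM in wild-type libraries, with 4 of the 6 called lower (edgeR). The part of cell composition in the Dio2 and Crym values was not tested.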

How the data were processed

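The deposited files hold whole-number counts per gene symbol, not normalized, 1 file per library. Per the submitters' processing notes, FastQC, STAR and HTSeq (no versions) and build mm10 were used. Per the labels' protocols, libraries came from a total RNA kit with unique molecular identifiers. No source used here gives the annotation, strand setting or use of identifiers. If reads were not collapsed by identifier, counts are not independent molecules. Of the symbols 15 are written like dates, and none is a member.

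The deposited counts were tested with edgeR 4.0.16 in R 4.3.3 (trimmed mean of M-values, default expression filter, robust quasi-likelihood fit, genotype as the only term), genome-wide over 21392 genes, with Benjamini-Hochberg adjustment and a threshold of 0.05. The standard error is the log2 fold change divided by the square root of F. Log2 CPM used a prior count of 2. Exon lengths and coordinates came from GENCODE M21 (GRCm38, the assembly of mm10), and promoters from RefSeq (GRCm38.p6). The test was checked on data drawn with known fold changes. It called 66% of 100 genes given a log2 fold change of 1 in size and 97% of 100 given 2. Calls also fell on 9 genes given no change. The changed genes were drawn at random above a minimum level, so these shares are not those of any given member.

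Alternatives were median-ratio scaling, no filter and a stricter filter (1 CPM or more in 4 or more libraries), limma-voom (limma 3.58.1), DESeq2 1.42.0, haemoglobin genes left out, title form as covariate, a replicate block and each library left out. The test of title form was added after the data had been seen. The members, the gene and marker lists and the naming rule were chosen with earlier results of these data known. The rule named all members, Thra, Slc3a2, Ttr, listed genes at an unadjusted p under 0.05, the 3 most similar genes per member and up to 3 markers per list. The values of 1 listed gene are not reported here. Outside that rule, Gm26512, Gm20388, Dio1, Slco1a6, Folr1, Pou3f4, Tbx15, Tbx18 and the deiodinase turnover genes were added with their values known. So were Mfsd2a, Foxq1, Slc38a5, Slc26a5 and Pou4f3.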

Additional observations from a re-analysis of the deposited data

Results flagged for a closer look

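With 4 libraries per genotype, 22 groups of single genes and 30 groups of marker sums were checked for a library far from the other 3. Chance flags about 1 in 20 such groups, and 1 and 2 were found.

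Ttr stood at 2020 CPM in mutant replicate 4, against 5.96 to 32.5 CPM in the other mutant libraries and 5.76 to 16.2 CPM in the wild-type libraries. The summed choroid plexus markers, which include Ttr, stood at 2110 CPM in the same library. Its other choroid plexus markers were also the highest of the 8 libraries, with Folr1 at 7.62 CPM there and at most 1.104 CPM elsewhere. The summed central neuron markers stood at 15.4 CPM in wild-type replicate 3, against 10.8 to 11.3 CPM in the other wild-type libraries. No member of the transporter and deiodinase set had a library this far from its group.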

How the results depend on the processing

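Between genotypes 0 of the 7 tested members were called in any of the 16 alternatives. The log2 fold change ranged from 1.09 to 1.65 for Dio2 and from 0.55 to 0.80 for Crym, and 6 of the 7 members kept their direction, Slc7a5 being the exception (-0.11 to 0.18 with single libraries left out). The 9 genes called became 68 with DESeq2, 16 with limma-voom, 5 with title form as covariate and 6 (without mutant replicate 1) to 14 (without mutant replicate 4) with a library left out. Whether neighbouring title numbers pair the libraries was not settled: 3 of the 4 same-number correlations were positive (0.13, 0.25 and 0.19) and 1 was not (-0.038). With that replicate block 29 genes were called and 0 members, with Dio2 at 1.19 and Crym at 0.66 (SE 0.13 with the block and 0.24 without, edgeR adjusted p = 0.130 with it). Dio2, Crym and Slc7a8 were higher in the mutant library of all 4 such pairs. The share of all tested genes with the same direction in all 4 pairs was not counted, so no result about these members is drawn from it. Same-numbered libraries matched best in both directions for numbers 2 and 3 only.

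The 17 genes called for the genotype by title form interaction became 55 with DESeq2 and 29 to 61 with a library left out. Leaving out libraries turned the sign of that difference for Dio2 (-2.05 to 0.18), Slc16a10 (-0.74 to 0.14), Slco1c1 (-0.57 to 0.55), Slco1a4 (-0.49 to 0.30), Slc7a5 (-0.17 to 0.067) and Crym (-0.69 to 0.049). For title form itself the 2008 genes became 1230 without a filter and 254 (without mutant replicate 1) to 1640 (without wild-type replicate 2) with a library left out. Slc7a5 was called in all 14 alternatives (adjusted p at most 0.0364) and Slc7a8 in 1, DESeq2 (-0.20). Signs turned for Crym (-0.20 to 0.12), Dio2 (-0.25 to 0.57) and Slc16a10 (-0.13 to 0.32). Per kilobase of the longest transcript the levels were 4.11 for Slc16a10, 34.2 for Slco1c1, 20.5 for Slco1a4 and 14.9 for Slc7a8. Causes were not tested. With 45 counts for Dio3, depth limits any statement on it.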

Other observations

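Slco1a6, an organic anion transporter gene of the same family as Slco1a4, was listed at 0 counts in wild-type replicate 1 and held 521 to 806 counts in each other library. Its fitted log2 fold change between mutant and wild-type libraries, 0.18 (SE 1.05), includes that library.

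Gm20388, whose span on chromosome 8 contains Slc7a5 on the other strand, held 2955 to 3250 CPM in mutant and 2901 to 3422 CPM in wild-type libraries.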
